A study of Mus musculus with 4 samples.

Results

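Chromatin accessibility was examined at the loci of 10 mouse genes of the mesenchymal and contractile actin programme, Vim, Fn1, Cdh2, Sparc, Acta2, Tagln, Cnn1, Myl9, Tpm1 and Tpm2. The genes were listed by name, as markers of mesenchymal cells and components of contractile actin bundles, and the rule used no measured value, although earlier results of these data were known when the list was made. They are 10 of 22350 protein-coding genes of the GENCODE vM1 annotation on the mouse build mm9, and all 10 were found there. At each gene the called regions were taken within 1000 bp of the transcription start site (TSS) of any annotated transcript, and over the locus, which is the gene body with 20 kb on either side.

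Accessible DNA was mapped by ATAC-seq, in which the transposase Tn5 places sequencing adapters in stretches of DNA between nucleosomes, in NMuMG cells, an established epithelial line from normal mouse mammary gland. A pair of cultures stayed in complete medium, which held 10% serum and insulin, and received vehicle or TGFβ1 at 5 ng/ml for 2 h. A second pair was starved of serum and insulin over 6 h before vehicle or TGFβ1 at 5 ng/ml was added for 10 min. The data were 3 peak lists for these 4 samples: 1 for vehicle and 1 for TGFβ in complete medium, and 1 that the labels of both 10 min samples name, so that vehicle and TGFβ could not be compared at 10 min. The characteristics of the TGFβ sample of the 10 min pair give 2 hours, whereas its title and protocol give 10 min, which was used here.

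Refined, the lists held 19648 regions for vehicle, 38532 for TGFβ and 26732 for the 10 min experiment. Each region carries the authors' score, a scaled irreproducible discovery rate (IDR) that runs from 540 to a cap of 1000, and it took the highest score of its peaks. With 1 list per condition and no read counts in the lists, no test between conditions was possible, and a position without a region is one that was not called, which is not the same as closed. Sequencing totals stated with the study were not used as values here, and they give the TGFβ library of complete medium fewer mapped reads than the vehicle library. The 95% intervals below cover counting error only. Of 12 epithelial markers, a region at a TSS was found for 5 with vehicle, 6 with TGFβ and 6 in the 10 min experiment, where 41.0, 47.6 and 46.3% of protein-coding genes had one. Krt8, Krt18, Krt19, Ocln and Grhl2 were called in all 3 lists, and Cldn4 in the TGFβ list alone. The E-cadherin gene Cdh1 was called in the 10 min list alone, and Epcam, Krt7, Cldn3, Cldn7 and Esrp1 in none. Of 4 smooth muscle markers none was called in any list, and of 7 fibroblast markers Col1a1 was called in each list. Of 4 endothelial and 4 blood markers, Kdr and Cd68 were called at a TSS in the TGFβ list alone and the others in no list, and all 8 loci held more TGFβ than vehicle regions, against 48.2% of protein-coding loci.

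TGFβ is a classic inducer of the epithelial-to-mesenchymal transition, in which epithelial cells give up E-cadherin junctions, turn to N-cadherin, vimentin and fibronectin, and assemble contractile actin bundles. Signal is carried to chromatin by SMAD proteins, which often act beside AP-1. Many actin and smooth muscle genes are controlled by serum response factor (SRF), which binds the CArG box and acts with the coactivators MRTF and myocardin. Of these, MRTF is switched on when actin polymerizes.

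The sequences that follow are from the mm9 genome and are written 5′ to 3′ in the direction of the gene, in lower case, with motif matches in capitals. The first set shows the CArG box, which is CC, 6 bases that are A or T, and GG. It was found within 1000 bp of the outermost TSS in Tagln, Myl9, Tpm2 and Cnn1, which are 4 of the 10 genes, while 9.4% of all protein-coding promoters of this length hold it. Only this exact form was searched. Variant boxes with another base were not counted, so a promoter without a match, such as that of Acta2, may still hold one. The Tagln match begins at -112 bp from the TSS and lies in chr9:45744164-45744333, minus strand, with a further match at 11 bp that is not shown. The Myl9 match begins at -117 bp and lies in chr2:156600959-156601128, plus strand. The Tpm2 match begins at -623 bp and lies in chr4:43537191-43537320, minus strand, and the Cnn1 match begins at 845 bp, inside the first intron, and lies in chr9:21904520-21904629, plus strand. The Tagln, Myl9 and Tpm2 stretches are shown by a rule, as promoter stretches upstream of the TSS with a CArG match, and the Cnn1 intron was added to them. Of these genes 3, Tagln, Myl9 and Cnn1, carry the box without a called region over it in any list. The box of Tpm2 was not inside a region either. The last of the set is the intronic Tpm1 region described below, chr9:66888667-66888966, minus strand, which is the one region of the 10 loci with a CArG match.
Tagln promoter: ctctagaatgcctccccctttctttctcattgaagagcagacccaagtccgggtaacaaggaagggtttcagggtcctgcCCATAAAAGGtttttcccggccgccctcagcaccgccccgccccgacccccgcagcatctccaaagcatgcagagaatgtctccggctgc
Myl9 promoter: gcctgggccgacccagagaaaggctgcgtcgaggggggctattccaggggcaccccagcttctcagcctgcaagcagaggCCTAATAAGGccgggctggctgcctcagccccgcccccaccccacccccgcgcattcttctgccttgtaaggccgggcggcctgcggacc
Tpm2 upstream: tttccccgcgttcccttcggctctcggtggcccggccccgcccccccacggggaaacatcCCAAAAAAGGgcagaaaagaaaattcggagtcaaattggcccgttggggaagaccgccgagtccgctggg
Cnn1 first intron: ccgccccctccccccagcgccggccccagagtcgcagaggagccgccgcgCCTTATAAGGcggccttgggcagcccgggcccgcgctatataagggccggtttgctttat
Tpm1 intron: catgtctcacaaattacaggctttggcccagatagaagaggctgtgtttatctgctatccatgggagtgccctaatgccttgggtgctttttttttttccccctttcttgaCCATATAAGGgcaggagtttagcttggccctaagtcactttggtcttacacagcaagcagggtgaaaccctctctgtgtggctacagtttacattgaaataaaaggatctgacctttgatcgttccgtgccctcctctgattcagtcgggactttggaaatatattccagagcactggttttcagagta

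The second set shows matches to AP-1 (TGACTCA or TGAGTCA), SMAD (CAGACA, read TGTCTG on the other strand, or GTCTAGAC) and TEAD (GGAATG, or CATTCC on the other strand). All were searched on both strands and no motif word contains another. The Vim promoter stretch, chr2:13495175-13495315, plus strand, holds a pair of AP-1 matches inside the region called in all 3 lists. The Tpm1 downstream stretch, chr9:66867693-66867992, minus strand, is the centre of a region of the TGFβ list alone and holds 1 AP-1 and 2 SMAD matches. The Cnn1 upstream stretch, chr9:21900362-21900661, plus strand, is the centre of the region nearest to the Cnn1 TSS. The Sparc intron, chr11:55231598-55231897, minus strand, holds an AP-1 and a TEAD match in a region that the TGFβ list lacks. The Acta2 upstream region, chr19:34337172-34337440, minus strand, and the Acta2 intron, chr19:34318678-34318977, minus strand, are the regions nearest to the Acta2 TSS. These 6 stretches and the Cnn1 intron were chosen for display after their values were seen.
Vim promoter: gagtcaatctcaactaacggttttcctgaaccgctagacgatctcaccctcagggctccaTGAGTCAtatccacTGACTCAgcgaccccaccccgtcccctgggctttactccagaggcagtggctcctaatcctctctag
Tpm1 downstream: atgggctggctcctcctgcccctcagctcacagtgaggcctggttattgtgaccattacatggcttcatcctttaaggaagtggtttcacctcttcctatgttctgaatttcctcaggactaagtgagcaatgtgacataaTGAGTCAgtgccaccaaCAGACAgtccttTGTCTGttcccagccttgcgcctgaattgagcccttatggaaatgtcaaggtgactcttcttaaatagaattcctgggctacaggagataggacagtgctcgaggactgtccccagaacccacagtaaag
Cnn1 upstream: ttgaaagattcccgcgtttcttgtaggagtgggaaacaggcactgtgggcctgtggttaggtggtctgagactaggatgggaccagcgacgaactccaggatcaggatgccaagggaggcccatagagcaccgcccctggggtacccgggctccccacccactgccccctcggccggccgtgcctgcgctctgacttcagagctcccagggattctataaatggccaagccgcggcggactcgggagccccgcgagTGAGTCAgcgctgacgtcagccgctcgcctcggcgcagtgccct
Sparc intron: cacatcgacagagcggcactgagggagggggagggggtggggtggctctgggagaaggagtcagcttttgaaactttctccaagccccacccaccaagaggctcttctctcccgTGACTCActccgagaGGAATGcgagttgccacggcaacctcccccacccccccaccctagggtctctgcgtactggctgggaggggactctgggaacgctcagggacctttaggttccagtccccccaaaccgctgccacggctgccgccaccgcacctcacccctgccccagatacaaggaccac
Acta2 upstream: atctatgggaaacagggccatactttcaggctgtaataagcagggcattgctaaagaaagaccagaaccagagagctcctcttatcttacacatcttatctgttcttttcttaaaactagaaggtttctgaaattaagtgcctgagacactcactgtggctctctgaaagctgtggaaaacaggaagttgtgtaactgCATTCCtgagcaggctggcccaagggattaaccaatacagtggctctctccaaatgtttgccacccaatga
Acta2 intron: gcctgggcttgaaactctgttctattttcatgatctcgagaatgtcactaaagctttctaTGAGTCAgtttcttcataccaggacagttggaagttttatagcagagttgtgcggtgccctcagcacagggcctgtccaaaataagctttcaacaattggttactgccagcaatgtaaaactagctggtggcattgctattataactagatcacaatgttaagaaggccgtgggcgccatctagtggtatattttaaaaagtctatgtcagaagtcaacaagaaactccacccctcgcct

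The 10 genes fell into those with a called TSS in every list and those without. Vim, Fn1, Cdh2, Tpm1 and Tpm2 had a region within 1000 bp of a TSS in all 3 lists, which is 5 of 10 genes, where 39.9% of protein-coding genes did. In the vehicle list 6 of 10 genes had such a region, these 5 and Sparc, against 41.0% of protein-coding genes. In the TGFβ list the same 5 genes had one, against 47.6%, and in the 10 min list these 5 and Tagln had one, against 46.3%. Acta2, Cnn1 and Myl9, which are 3 of 10 genes, had none in any list, against 50.4% of protein-coding genes. None of the 10 genes had a TSS region in the TGFβ list and not in the vehicle list, where 7.24% of protein-coding genes did. Sparc was the one gene with the reverse, which 0.622% of protein-coding genes showed, and Tagln the one gene called at the TSS in the 10 min list alone, which 1.35% showed. With 10 genes these counts are near what the background gives, apart from the Sparc and Tagln calls. Each of these rests on a single narrow region, and a single call among 10 genes is not a result about the set. Neither was kept at a minimum width of 300 bp. The counts changed at a stricter IDR of 0.01. There 2 genes, Vim and Sparc, kept a TSS region in the vehicle list, against 30.7% of protein-coding genes, the same 5 genes in the TGFβ list, against 40.6%, and Vim and Tpm1 in the 10 min list, against 36.3%. Fn1, Cdh2, Tpm1 and Tpm2 then had one in the TGFβ list and not in the vehicle list, which is 4 of 10 genes against 10.8% of protein-coding genes, Sparc again had the reverse, against 0.931%, and Vim alone was called in all 3 lists, against 28.1%.

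**Figure D1:**
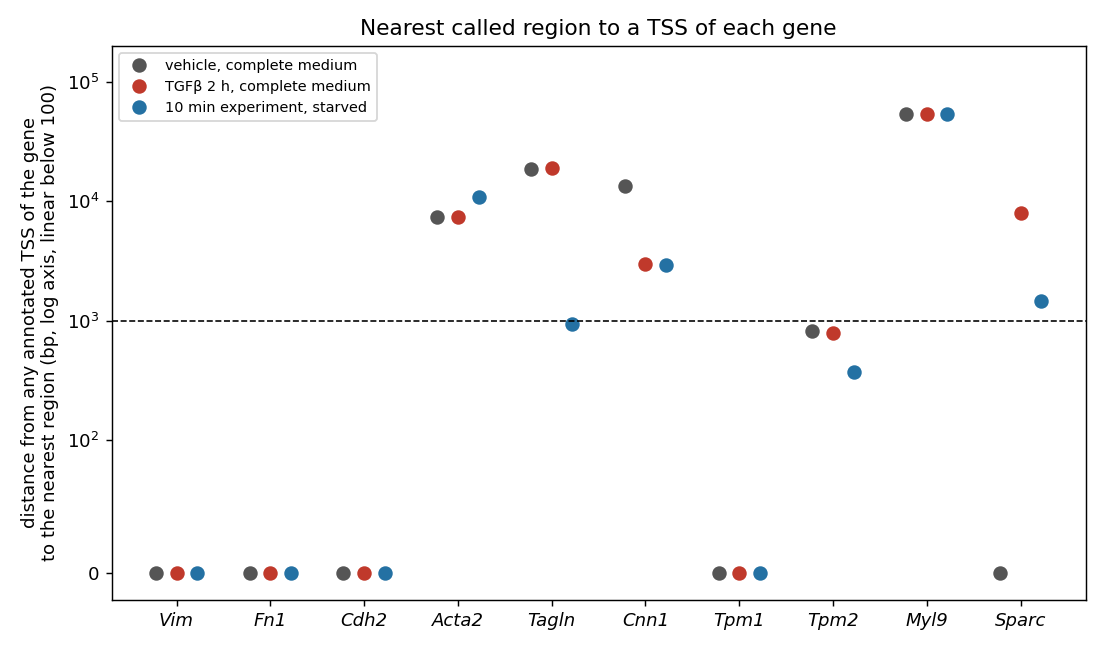
Distance in bp from any annotated TSS of each gene to the nearest called region, on a log axis that is linear below 100, with 1 point per list and a dashed line at 1000 bp. Vim, Fn1, Cdh2 and Tpm1 are at 0 in all 3 lists, Myl9 is at 53928 bp or more in all 3, and Sparc is at 0 in the vehicle list and at 8039 bp in the TGFβ list.

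Over the loci, 34 distinct sites were called in at least 1 list. Of these, 9 were at a TSS of the gene itself, 6 at the TSS of a neighbouring gene and 19 distal to any TSS. The loci held 16 vehicle regions, 28 TGFβ regions and 23 regions of the 10 min list. There were 1.75 TGFβ regions for each vehicle region (exact 95% interval 0.91 to 3.46), and 1.96 over the whole lists (1.93 to 2.00), so the ratio at the loci was near that of the lists as a whole. These intervals treat the counts of the lists as independent. At the loci 14 sites were called in both lists, so the interval is only a rough guide. With only the best-scoring TGFβ regions, equal in number to the vehicle regions, the loci held 14 TGFβ regions against 16, a ratio of 0.88, and 1 of the 14 was absent from the vehicle list. The TGFβ list held more regions than the vehicle list at Cdh2, Acta2, Cnn1, Tpm1 and Tpm2, which are 5 of 10 loci, against 48.2% of protein-coding loci. Numbers were equal at Vim, Fn1, Tagln and Myl9, which are 4 of 10 loci, against 49.7%, and lower at Sparc, against 2.07%. Cdh2 and Tpm1 together gave 8 of the 14 TGFβ regions that the vehicle list lacked, with 4 at each gene. The loci span 795.7 kb in all, and the regions per 100 kb numbered 2.01 for vehicle, 3.52 for TGFβ and 2.89 for the 10 min experiment, where all protein-coding loci gave 1.15, 2.11 and 1.56. The median number of regions per locus was 1.0, 2.0 and 2.5 in the same order, against 1.0, 2.0 and 1.0 over protein-coding loci.

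**Figure D2:**
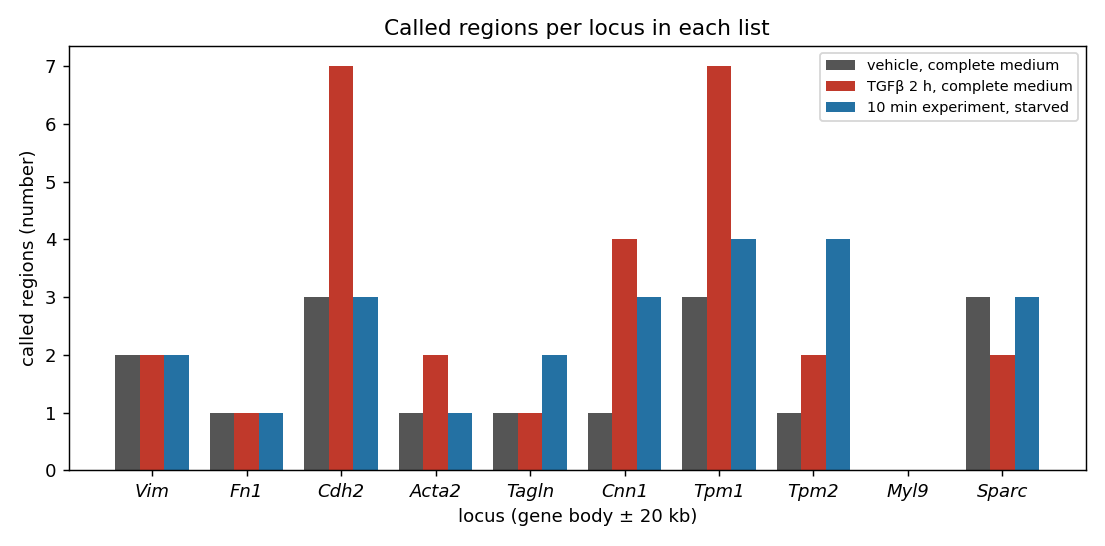
Number of called regions at each locus, the gene body with 20 kb on either side, in the vehicle, TGFβ and 10 min lists. Cdh2 and Tpm1 reach 7 regions each in the TGFβ list against 3 each in the vehicle list, Vim and Fn1 are level across the lists, and Myl9 has 0 throughout.

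Vim, which encodes the intermediate filament protein vimentin (ENSMUSG00000026728.3, chr2:13495554-13504453, plus strand), was called at the TSS in every list at the cap of 1000. The region ran over chr2:13495115-13496196 in the vehicle list, chr2:13495115-13496225 in the TGFβ list and chr2:13494885-13496307 in the 10 min list, with widths of 1082, 1111 and 1423 bp. It overlapped a coding exon and had 5, 6 and 5 summits. Vim was the only one of the 10 genes with a TSS region at the cap in the vehicle list. The other site of the locus, at -15779 bp from the TSS, lay over the TSS of Gm9875, with widths of 426 bp for vehicle, 1833 bp for TGFβ and 454 bp in the 10 min experiment. Its score was 812 in the vehicle list and at the cap in the TGFβ and 10 min lists.

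Fn1, which encodes the matrix glycoprotein fibronectin (ENSMUSG00000026193.8, chr1:71632094-71699774, minus strand), had a single region in each list across a locus of 107.7 kb. It lay over the TSS, at chr1:71699140-71700131 in the vehicle list, chr1:71699269-71700306 in the TGFβ list and chr1:71699169-71700121 in the 10 min list. The widths were 992, 1038 and 953 bp, and the score was at the cap in the TGFβ list, 777 in the vehicle list and 739 in the 10 min list. An annotated TSS of Apol7d lies in the same region, so the call cannot be assigned to Fn1 alone. No distal region was called within the gene body or its flanks in any list.

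Cdh2, which encodes the mesenchymal adhesion molecule N-cadherin (ENSMUSG00000024304.8, chr18:16747386-16967755, minus strand), is the longest of the loci at 260.4 kb and held 3 vehicle, 7 TGFβ and 3 10 min regions. The TSS region was 832 bp wide in the vehicle list (chr18:16966531-16967362), 1604 bp in the TGFβ list (chr18:16966557-16968160) and 1768 bp in the 10 min list (chr18:16966585-16968352). Its score was at the cap in the TGFβ list, against 655 for vehicle and 820 in the 10 min experiment. Inside the introns, a site at 64100 bp from the TSS was called in every list and a site at 68317 bp in both complete-medium lists, and both were at the cap in the TGFβ list and below it in the vehicle list. A further intronic site at 135172 bp was called in the TGFβ list, with a width of 1147 bp and a score of 807, and in the 10 min list, with 848 bp and 750. The 3 sites of the TGFβ list alone were narrow, at 198, 255 and 199 bp. The one with the highest score, 895, lay at chr18:16980586-16980784, at -12930 bp from the TSS, in an exon of the noncoding gene Gm15328. Without Cdh2 the 9 other loci held 13 vehicle, 21 TGFβ and 20 10 min regions.

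Sparc, which encodes the matrix-binding glycoprotein osteonectin (ENSMUSG00000018593.6, chr11:55208002-55233582, minus strand), differed from the other 9 genes in having vehicle regions that the TGFβ list lacked. These were 2 of its 3 vehicle regions. At least 1 vehicle region absent from the TGFβ list was found at 1 of the 10 loci, against 6.93% of protein-coding loci. The first, chr11:55233315-55233530, lay over the TSS in the vehicle list alone, 216 bp wide with a score of 913 and 1 summit. The second lay in an intron at 1860 bp from the TSS, at chr11:55231550-55231946 in the vehicle list, with a score of 556, and at chr11:55231498-55231929 in the 10 min list, with a score of 782. It is the Sparc intron printed above, with its AP-1 match. The TGFβ list held no interval under 150 bp at the Sparc locus either, so neither site was lost to the width rule. A site at -8360 bp was called in every list, at the cap in both complete-medium lists, and a site at 33427 bp was called in the TGFβ list (220 bp, score 884) and the 10 min list (238 bp, score 657).

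**Figure D3:**
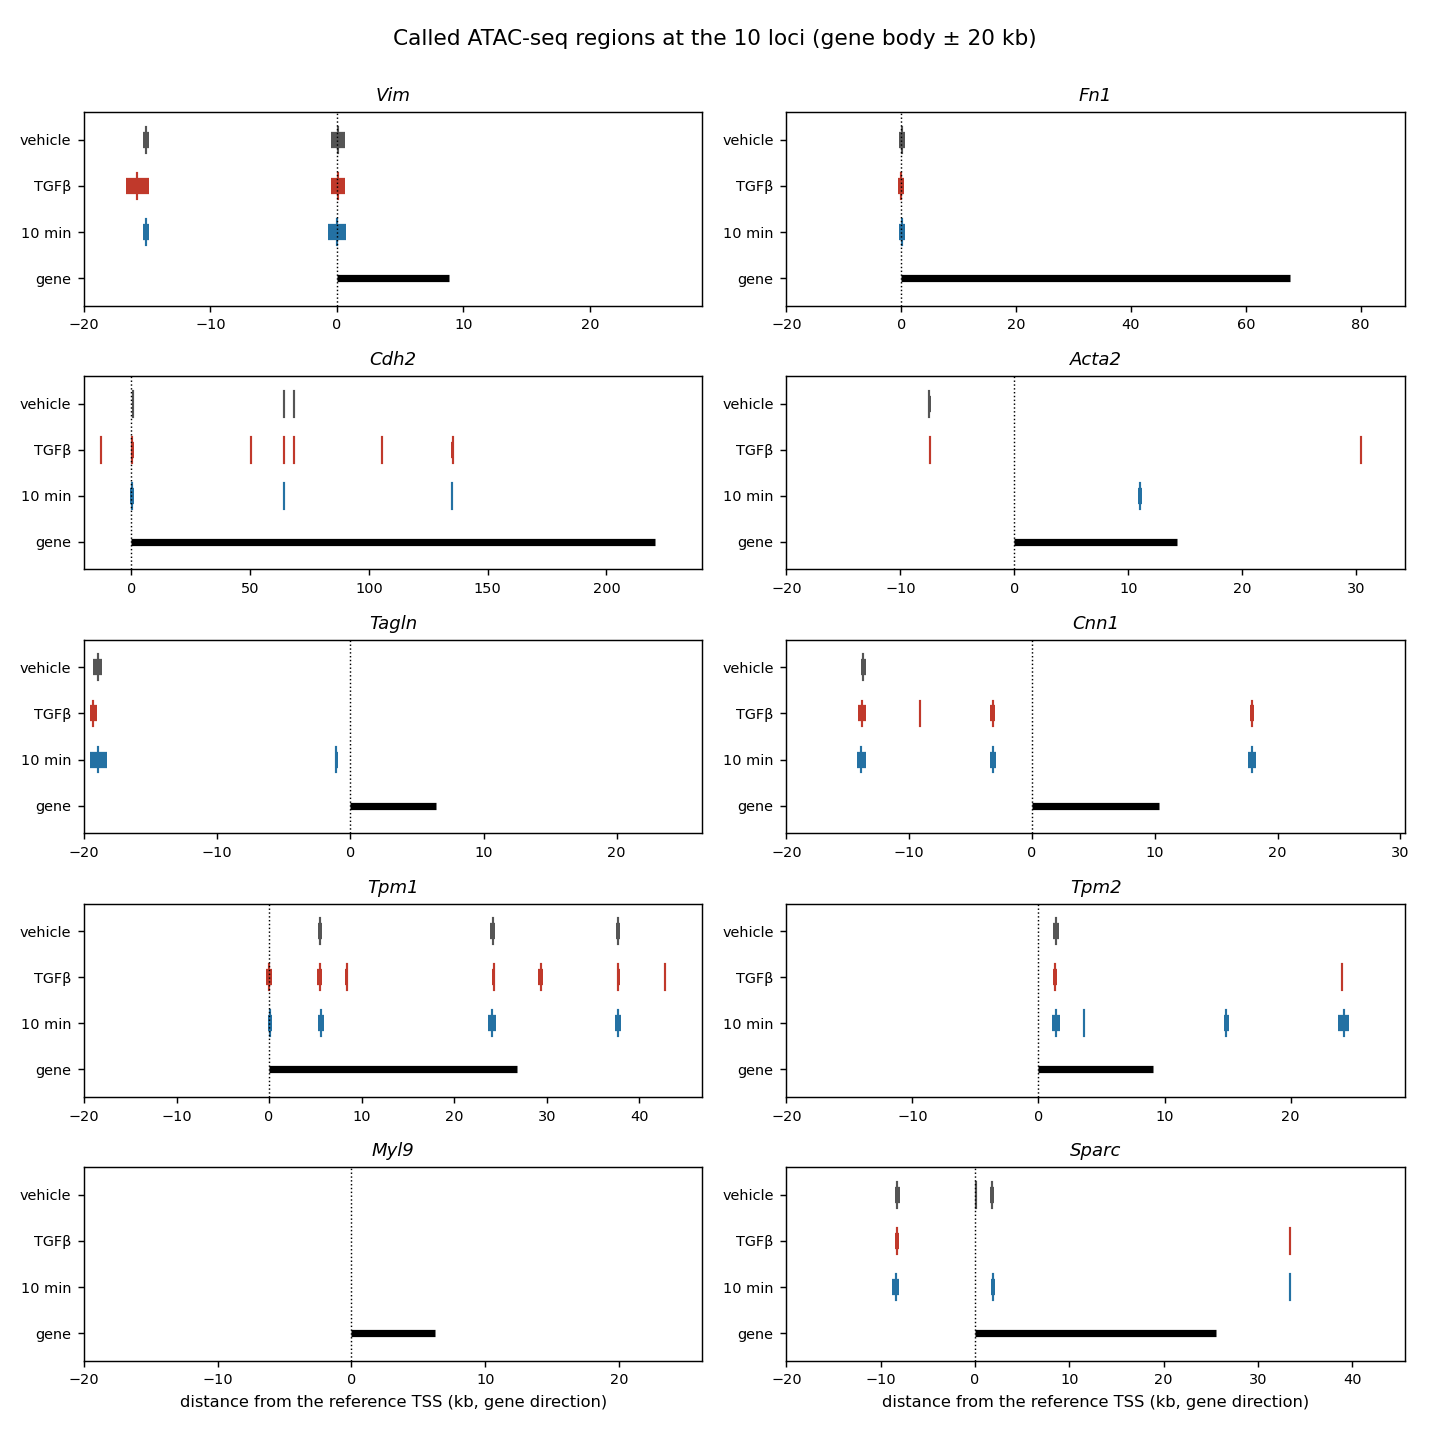
Called regions at the 10 loci by distance in kb from the outermost TSS in the direction of the gene, with a lane for each list, a black bar for the gene body, a dotted line at the TSS and a thin tick at the centre of each region. Vim and Fn1 show the same positions in each lane, Cdh2 and Tpm1 show added TGFβ positions inside or beside the gene, and Myl9 has no region within the 46.2 kb of its locus.

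Acta2, which encodes smooth muscle α-actin, the defining actin of myofibroblasts (ENSMUSG00000035783.8, chr19:34315580-34329826, minus strand), had no region at its TSS in any list. The nearest region was 7346 bp away in the vehicle and TGFβ lists and 10837 bp away in the 10 min list. The upstream site, at -7480 bp, was 269 bp wide with a score of 750 in the vehicle list and 156 bp wide with a score of 837 in the TGFβ list. The TGFβ list added a site at 30397 bp, chr19:34299312-34299545, 234 bp wide with a score of 569, in an intron of the neighbouring gene Stambpl1. The 10 min list held an intronic Acta2 site of its own at 10998 bp, chr19:34318666-34318989, 324 bp wide with a score of 666 and an AP-1 match. No site of Acta2 was shared by all 3 lists, and none reached the cap.

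Tagln, which encodes the actin-binding protein transgelin or SM22α (ENSMUSG00000032085.4, chr9:45737711-45744141, minus strand), was called near its TSS in the 10 min list alone. That region, chr9:45745084-45745300, was 217 bp wide with a score of 599 and 1 summit, and its near edge was 943 bp from the TSS, just inside the 1000 bp window. It did not reach the CArG box at -112 bp. The nearest region was 18637 bp away in the vehicle list and 19059 bp away in the TGFβ list. It lay at the TSS of Sidt2, which was called in every list with scores of 922, 1000 and 1000 in the vehicle, TGFβ and 10 min lists.

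Cnn1, which encodes the smooth muscle actin-binding protein calponin (ENSMUSG00000001349.4, chr9:21903725-21914074, plus strand), had no region at its TSS in any list and held 1 vehicle, 4 TGFβ and 3 10 min regions over its locus. The vehicle region lay at the TSS of the neighbour Ecsit, at -13874 bp, and was at the cap in all 3 lists. The nearest region was thus 13505 bp from the Cnn1 TSS in the vehicle list, and 3014 bp in the TGFβ list and 2931 bp in the 10 min list. The closer site lay upstream at -3171 bp, at chr9:21900313-21900711 in the TGFβ list (399 bp, score 851) and chr9:21900316-21900794 in the 10 min list (479 bp, score 791). It is the Cnn1 upstream stretch printed above, with its AP-1 match. A site of the TGFβ list alone at -9096 bp was 158 bp wide with a score of 680 and also held an AP-1 match. The remaining site, at 17928 bp, lay at the TSS of Elof1 and was called in the TGFβ list with a score of 869 and in the 10 min list at the cap.

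Myl9, which encodes the regulatory light chain of smooth muscle and non-muscle myosin (ENSMUSG00000067818.6, chr2:156601156-156607394, plus strand), had no region in any list over its locus of 46.2 kb. A locus with no region in any list was found for 24.4% of protein-coding genes. The nearest region to a Myl9 TSS was 53973 bp away in the vehicle list, 53928 bp in the TGFβ list and 54085 bp in the 10 min list.

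Tpm1, which encodes the α-tropomyosins that lie along actin filaments (ENSMUSG00000032366.9, chr9:66870397-66897213, minus strand), has 21 annotated TSS positions and held 3 vehicle, 7 TGFβ and 4 10 min regions. The lists differed at its outermost TSS, from which the long tropomyosin forms start, and shared an internal one. The region at the outermost TSS was called at chr9:66896906-66897534 in the TGFβ list (629 bp, score 816, 3 summits) and at chr9:66896944-66897341 in the 10 min list (398 bp, score 691, 2 summits), and not in the vehicle list. The internal TSS region, at 5553 bp, was called in every list, at chr9:66891518-66891960 in the vehicle list (443 bp, score 670), chr9:66891502-66892002 in the TGFβ list (501 bp, score 1000) and chr9:66891317-66891974 in the 10 min list (658 bp, score 841). Counted by gene, Tpm1 therefore had a TSS region in each list, and counted by TSS it did not. Sites at 24082 bp, in an intron, and at 37704 bp, beyond the 3′ end, were also common to the 3 lists and both held an AP-1 match.

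The TGFβ list alone held 3 further Tpm1 sites. The intronic one at 8396 bp, chr9:66888661-66888973, was 313 bp wide with 2 summits and a score of 975, the highest of the 14 TGFβ regions that the vehicle list lacked. It is the Tpm1 intron with the CArG box printed above, and 1.9% of all TGFβ regions held such a match within 200 bp of their centre. The site at 29370 bp, chr9:66867572-66868114, was 543 bp wide with a score of 661 and held the AP-1 and SMAD matches of the Tpm1 downstream stretch. The third, at 42751 bp, was 199 bp wide with a score of 588 and held none of the motifs. When only the 19648 best-scoring TGFβ regions were used, a number equal to that of the vehicle list, the lowest score kept was 904, and the Tpm1 intron was the 1 region of the 14 that remained.

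Tpm2, which encodes β-tropomyosin (ENSMUSG00000028464.9, chr4:43527583-43536637, minus strand), held 1 vehicle, 2 TGFβ and 4 10 min regions. Its shared site, at 1360 bp from the outermost TSS and over a coding exon, lay at chr4:43534983-43535445 in the vehicle list (463 bp, score 642), chr4:43535174-43535468 in the TGFβ list (295 bp, score 1000) and chr4:43534953-43535600 in the 10 min list (648 bp, score 703). Its near edge was 815 bp from the nearest TSS in the vehicle list and 792 bp in the TGFβ list, so that with a window of 200 bp Tpm2 had no TSS region in any list. The 10 min list alone held a site at 3624 bp, chr4:43532916-43533110, 195 bp wide with a score of 566, in an intron near the start of an internal noncoding transcript. The TGFβ list had an interval of 146 bp there, which the width rule discarded. The other sites lay at neighbours, at 14901 bp over the TSS of Car9 and Gm12454 in the 10 min list alone, and at 24204 bp over the TSS of E130306D19Rik in the TGFβ list (199 bp, score 819) and the 10 min list (868 bp, score 793).

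The 14 TGFβ regions that the vehicle list lacked were narrower and scored lower than the 14 that both lists held. Their median width was 244.5 bp (158 to 1147 bp) against 504 bp (156 to 1833 bp), and their median score was 811.5 (569 to 975) against 1000 (837 to 1000). None of the 14 was at the cap, while 12 of the 14 shared ones were. Over the whole TGFβ list the median was 281 bp for regions that the vehicle list lacked, and 13.9% of these were at the cap. All regions of that list had a median of 379 bp, with 41.4% at the cap, so the contrast is not particular to these loci. A TGFβ region absent from the vehicle list was present at Cdh2, Acta2, Cnn1, Tpm1, Tpm2 and Sparc, which are 6 of 10 loci, against 50.2% of protein-coding loci. Of the 14 regions, 1 lay at a member TSS, that of Tpm1, 2 at a neighbour's TSS and 11 were distal.

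At the 14 shared sites the difference between the lists was in the score and not in one direction of width. In 8 of them the region was at the cap in the TGFβ list and below it in the vehicle list, where 33.4% of the 18268 regions shared one to one between the whole lists did so. In 0 of them was it the reverse, against 2.61%. The 8 include the TSS regions of Fn1 and Cdh2 and the internal ones of Tpm1 and Tpm2. A region at the cap in the vehicle list could not be among them. Of the vehicle regions, 25.0% were at the cap at the loci and 38.2% in the whole list, so the shares are not like for like. The region was wider in the TGFβ list at 8 of the 14 and narrower at 6, against 66.1% wider over the whole lists. The score depends on the agreement of the authors' replicates as well as on signal, and the part of either was not tested.

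**Figure D4:**
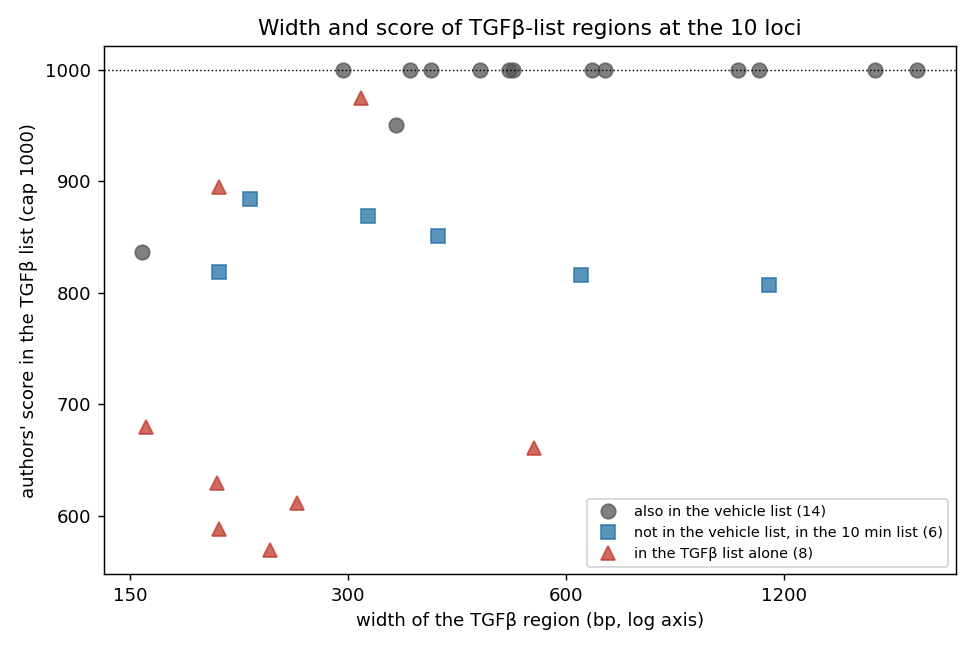
Width in bp, on a log axis, and the authors' score of the 28 TGFβ regions at the 10 loci, split into 14 that the vehicle list also holds, 6 that the 10 min list but not the vehicle list holds, and 8 of the TGFβ list alone. Of the shared regions 12 sit at the cap of 1000, while the other 14 lie between 569 and 975.

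The 10 min list, from starved cells and with vehicle and TGFβ not told apart, held 12 of the 14 shared sites, or 85.7% (Wilson 95% interval 60.1 to 96.0%), and 6 of the 14 TGFβ regions that the vehicle list lacked, or 42.9% (21.4 to 67.4%). Over the whole lists these shares were 90.8% and 31.5%. The 6 were the outermost TSS of Tpm1, the intronic Cdh2 site at 135172 bp, the upstream Cnn1 site, the Sparc site at 33427 bp and the Elof1 and E130306D19Rik promoters. Their TGFβ scores, from 807 to 884, were higher than those of 6 of the 8 regions of the TGFβ list alone, the exceptions being the Tpm1 intron at 975 and the Cdh2 site at 895. The 4 sites called in the 10 min list alone were those at the Tagln TSS, the Acta2 intron, the internal Tpm2 TSS and Car9. Regions at the 10 loci were also wider in this list, with a median of 658 bp against 473 bp in the vehicle and 378 bp in the TGFβ list, and the whole lists had medians of 544, 428 and 379 bp. Starvation, treatment time and list cannot be told apart here.

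The 5 genes without a TSS region in the TGFβ list were those with few CpG dinucleotides at the promoter, a sequence feature that the choice of genes did not use. The ratio of observed to expected CpG within 500 bp of the outermost TSS was 0.217 for Sparc, 0.229 for Cnn1, 0.337 for Acta2, 0.352 for Tagln and 0.360 for Myl9. It was 0.529 for Vim, 0.577 for Tpm2, 0.614 for Tpm1, 0.688 for Fn1 and 0.869 for Cdh2, the 5 genes called in every list. The median over protein-coding genes was 0.553. The calls count any TSS of a gene, whereas the ratio is that of the outermost one. No list had a region within 1000 bp of the outermost Tpm2 TSS, and the vehicle list had none at that of Tpm1. Of the 8890 protein-coding genes with a ratio below 0.4, a TSS region was found for 8.5% with vehicle, 13.0% with TGFβ and 11.2% in the 10 min experiment. Of the 3177 genes from 0.4 to 0.6 the shares were 35.8, 45.2 and 43.0%, and of the 10283 genes at 0.6 or above they were 70.7, 78.3 and 77.6%. The single calls below 0.4 were Sparc in the vehicle list and Tagln in the 10 min list.

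**Figure D5:**
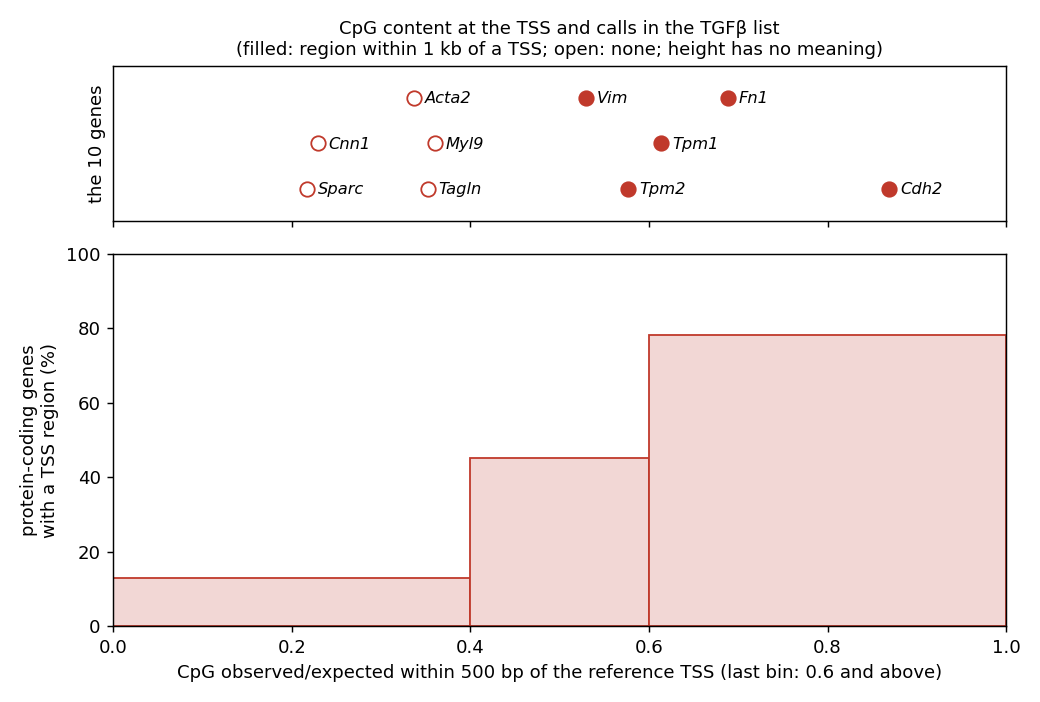
Upper panel: ratio of observed to expected CpG at the outermost TSS of the 10 genes, filled where the TGFβ list has a region within 1000 bp of a TSS and open where it has none. The Tpm2 point is filled for a region at an internal TSS. Lower panel: share of protein-coding genes with a TSS region in the TGFβ list by the same ratio, from 13.0% below 0.4 to 78.3% at 0.6 or above, with the 5 open genes all in the lowest bin.

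Motif matches in the regions of these loci were counted beside those of the whole lists, and the counting intervals are wide. Within 200 bp of the region centre, 8 of the 28 TGFβ regions held AP-1, or 28.6% (Wilson 95% interval 15.3 to 47.1%), against 32.0% of all TGFβ regions. SMAD was matched in 10 of 28, or 35.7% (20.7 to 54.2%), against 35.0%, and the CArG box in 1 of 28, or 3.6% (0.6 to 17.7%), against 1.9%. The TEAD motif was matched in 6 of 28 against 25.0% of the list, and the E-box CAGGTG, which SNAI and ZEB factors bind and whose other strand reads CACCTG, in 4 of 28, or 14.3% (5.7 to 31.5%), against 24.0%. In the vehicle list the E-box was matched in 12.5% (3.5 to 36.0%) against 23.5%, and in the 10 min list in 13.0% (4.5 to 32.1%) against 25.7%, so that the share was lower at these loci in each list and the interval held the background share each time. The lists have 12 sites in common at these loci, so the 3 shares are not independent. AP-1 was matched in 6 of 16 vehicle regions, against 27.4% of that list, and in 8 of 23 10 min regions, against 27.1%. Among distal regions AP-1 was matched in 7 of 17 in the TGFβ list, or 41.2% (21.6 to 64.0%), against 41.2% of its distal regions. The distal counts were 4 of 7 for vehicle, or 57.1% (25.0 to 84.2%) against 44.3%, and 6 of 9 in the 10 min experiment, or 66.7% (35.4 to 87.9%) against 39.6%. None of the 16 vehicle and none of the 23 10 min regions held a CArG match.

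In the promoters, taken as 1000 bp on either side of the outermost TSS, AP-1 was matched in Vim, Cdh2 and Acta2, which are 3 of 10 genes, against 24.2% of protein-coding promoters. The Vim matches begin at -319 and -305 bp, the Cdh2 match at -629 bp and the Acta2 match at 138 bp. SMAD was matched in 8 of 10 against 79.4%, TEAD in 5 of 10 against 64.0% and the E-box in 8 of 10 against 79.1%. Of the 4 genes with a CArG match, Tagln, Cnn1 and Myl9 had no TSS region in the TGFβ list. Tpm2 had one, but at an internal TSS and outside the 1000 bp window of its outermost TSS. In the TGFβ list none of the 4 promoters searched thus held a region. Over all protein-coding genes, 42.2% of those with a CArG match in the promoter and 48.2% of those without had a TSS region in the TGFβ list. A match describes the sequence and says nothing of binding.

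Related genes of both programmes were described in the same way. Among 31 further actin, myosin and actin-binding genes, 21 had a TSS region in the vehicle list and 23 in each of the other lists, against 41.0, 47.6 and 46.3% of protein-coding genes, and 8 had none in any, against 50.4%. The 8 were the muscle actins Acta1, Actg2 and Actc1, the myosin heavy chains Myh10 and Myh11, the calponin Cnn2, leiomodin Lmod1 and desmin Des. The 2 with a TSS region in the TGFβ list and not in the vehicle list were the cytoplasmic actin Actg1 and the LIM protein Pdlim7. Of the SRF genes, Srf, Mkl1 and Mkl2 had a TSS region in every list and Myocd, the myocardin gene of cardiac and smooth muscle, in none. The Mkl1 locus had 3 regions with vehicle, 10 with TGFβ and 6 in the 10 min experiment, and the Mkl2 locus had 4, 11 and 7. The Srf locus had 2 in each list and the Myocd locus 1, 2 and 1, so that 3 of the 4 loci held more TGFβ than vehicle regions, against 48.2% of protein-coding loci. Among 16 further mesenchymal matrix and surface genes, a TSS region was found for 3 with vehicle, 4 with TGFβ and 2 in the 10 min experiment, and 12 had none, beside the same background shares. S100a4 and Thbs1 were called in every list, the lysyl oxidase gene Loxl2 in both complete-medium lists and the biglycan gene Bgn in the TGFβ list alone.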

How the data were processed

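ATAC-seq libraries of NMuMG cells were processed by the authors, whose methods describe the ENCODE ATAC-seq pipeline, alignment to mm9 and retention of peaks at an IDR of 0.05 or below, and whose processing notes name MACS2 2.1.2. The deposited lists give a score, the authors' scaled IDR, with 1 line per summit. Read ends were moved to the Tn5 cut site for footprints per the methods, which name no such step for peak calls. What served as replicates behind the IDR was not settled, nor was it clear which of the 2 libraries at 10 min gave the peaks of that list. Peak numbers depend on depth and replicate agreement as well as on accessibility.

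Here intervals under 150 bp were discarded and neighbours with a gap under 1000 bp were merged, as in the study. A site was shared when regions overlapped by at least 1 bp. Annotation was GENCODE vM1 and sequence the NCBIM37 (mm9) genome, and all intervals lay inside its chromosomes. Distances run from the outermost TSS to the centre of the site, and nearest distances from any TSS of the gene to the edge of the region. Samples were grouped by their labels, with 1 list per condition, so no test was run. Intervals for shares are Wilson and for ratios of counts exact, the latter treating the counts of the lists as independent although sites are shared. Motifs were searched within 200 bp of region centres and within 1000 bp of the outermost TSS of each gene, and not around internal TSS positions. Regions given by position are those at a TSS of the 10 genes, those of the vehicle list that the TGFβ list lacks, and the highest-scoring TGFβ region per gene that the vehicle list lacks, with further sites added after their values were seen. The genes, lists of related genes and motifs were chosen with earlier results of these data known. Alternatives were the width minimum, merging, IDR threshold, list length, overlap rule, TSS window, TSS class, flank and motif window, and, added after seeing the data, leaving out Cdh2 or regions at a neighbour's TSS. Scripts were tested on simulated lists. Python 3.11.15, numpy 2.4.6, scipy 1.17.1 and pysam 0.24.0 were used. Of the related genes, Myl12a and Spi1 were not found by symbol.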

Additional observations from a re-analysis of the deposited data

Results flagged for a closer look

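At the 10 loci, 5 intervals under 150 bp were discarded from the TGFβ list and 0 from the vehicle and 0 from the 10 min list. They were singled out because they lie outside the regions compared and above the count in the control list. Cdh2 held 3 of them, 84, 140 and 100 bp wide with scores of 603, 754 and 998, Tpm1 held 1 of 108 bp with a score of 645, and Tpm2 held 1 of 146 bp with a score of 556 at the internal TSS called in the 10 min list. In the whole lists, intervals under 150 bp made up 11.13% of the TGFβ, 6.28% of the vehicle and 3.21% of the 10 min intervals.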

How the results depend on the processing

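Of 108 values recomputed for 13 results, 90 stayed within 1.5 times the count, or within the counting interval of the ratio or share, and 18 did not. No paired analysis was possible because there was a single list for each condition. With a minimum width of 300 bp the loci held 18 TGFβ regions, 7 of them absent from the vehicle list, and the 10 min list held 71.4% of these 7. At an IDR of 0.01, 2 genes had a TSS region in the vehicle list (Vim, Sparc) and 2 in the 10 min list (Vim, Tpm1), while the same 5 genes had one in the TGFβ list, and the loci held 7 vehicle and 8 10 min regions. With the best-scoring TGFβ regions alone, equal in number to the vehicle regions, 14 TGFβ regions remained, 1 of them absent from the vehicle list, the ratio was 0.88 and the 10 min list held 0.0% of that 1, a change that fewer regions in the list brings by construction. Without flanks the loci held 10 vehicle, 13 TGFβ and 12 10 min regions, with 5 TGFβ regions absent from the vehicle list, and with flanks of 50 kb they held 34, 52 and 45. Over all alternatives the ratio ran from 0.88 to 2.71. At a width minimum of 300 bp Sparc lost its TSS call in the vehicle list, Tagln in the 10 min list and Tpm2 in the TGFβ list. Other than by the construction of a setting, the cause of these changes was not tested. The lists hold no read counts, which limits every absence of a call.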
